A study of Oryza sativa with 35 samples.

Results

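The libraries carrying the first and the last tissue code of Koshihikari, a japonica rice cultivar, were compared across all loci of the count table. These are the 5 libraries labelled R1 and the 3 labelled R5, 8 of the 35 libraries of the series, and they were chosen by their labels alone. The other Koshihikari libraries are coded R2 (5 libraries) and R4 (3), and NIL-Gn1, by its name a near-isogenic line at the grain number locus Gn1, has 8, 8, 1 and 2 libraries at R1, R2, R4 and R5. All plants grew at 70% humidity in short days, with 10 h of light (27 °C, 100 µmol m-2 s-1) and 14 h of dark (25 °C), and no other treatment, age or allele is given for either line. The labels call the tissue inflorescence meristem and do not say what the codes R1 to R5 stand for. Whether each library is a plant of its own is not stated either, so p-values here compare libraries, and their spread may be technical. RNA was counted by CEL-Seq2, which tags each RNA molecule at its 3′ end with a unique molecular identifier (UMI) before amplification.

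In rice the inflorescence meristem lays down branch meristems, which form further branches and at last turn into spikelet meristems that bear the flowers. How long branch meristems keep their branching fate sets how many branches and grains a panicle carries. TAW1 and other ALOG proteins, plant nuclear proteins named after Arabidopsis LSH1 and Oryza G1, are known for holding back the change to spikelet fate. MADS-box factors of the APETALA1/FRUITFULL and SEPALLATA classes, acting with florigen, are known for driving it.

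Totals were 107930 to 249016 UMIs in the R1 libraries and 109742 to 135923 in the R5 libraries (exact two-sided permutation test over 56 assignments, p = 0.661), and 13636 to 16509 and 13284 to 14119 loci were detected. The loci kept for testing held 85.9 to 87.5% of the UMIs of the R1 libraries and 87.8 to 87.9% of those of R5 (exact p = 0.0357). Levels are given as CPM, the share of a library's tested-locus UMIs scaled by its normalization (TMM) factor, unless stated as CPM of all UMIs. A count of 0 allows up to 12.0 to 27.8 CPM in an R1 library and 22.1 to 27.3 CPM in an R5 library, both as CPM of all UMIs, taking 3 counts as the limit, which covers counting error only. On the first principal component of the 16 Koshihikari libraries (21.2% of the variance), R1 scored -21.7 to -16.8, R2 -26.6 to -11.9, R4 27.8 to 32.1 and R5 29.0 to 36.4, so R1 lay with R2 and R5 with R4. No R1 or R5 library stood apart from its group, whereas R2 replicate 1 (-49.1) and replicates 4 and 5 (31.0 and 32.4) did so on the second component (10.3%). OSH1, the homeobox gene that marks rice shoot meristems, was detected in all 8 libraries at 148 to 421 CPM.

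Between R1 and R5, 648 of 7406 tested loci were called (8.75%, edgeR's quasi-likelihood test with a Benjamini-Hochberg adjusted p under 0.05). Of these, 405 were higher in R5 (5.47% of tested loci) and 243 lower (3.28%). A fitted change of at least 2-fold was found for 280 of the higher and 208 of the lower loci, and of at least 8-fold for 63 and 21. The median log2 fold change was 1.51 over the higher loci, -1.67 over the lower loci and -0.05 over all tested loci. The R1 and R5 libraries did not overlap for 341 of the higher and 199 of the lower loci, while over all tested loci every R5 library lay above every R1 library for 616 (8.32%) and below for 521 (7.03%). No UMI was counted in the 5 R1 libraries for 9 of the higher loci, and none in the 3 R5 libraries for 6 of the lower loci. Without R5 replicate 2 the count of called loci fell to 390, of which 349 were among the 648. The share called also depends on which loci are kept for testing. It was 560 of 3203 with only the R1 and R5 groups fitted, 457 of 3491 at a minimum mean of 10 counts and 603 of 24425 with no low-count filter.

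**Figure D1:**
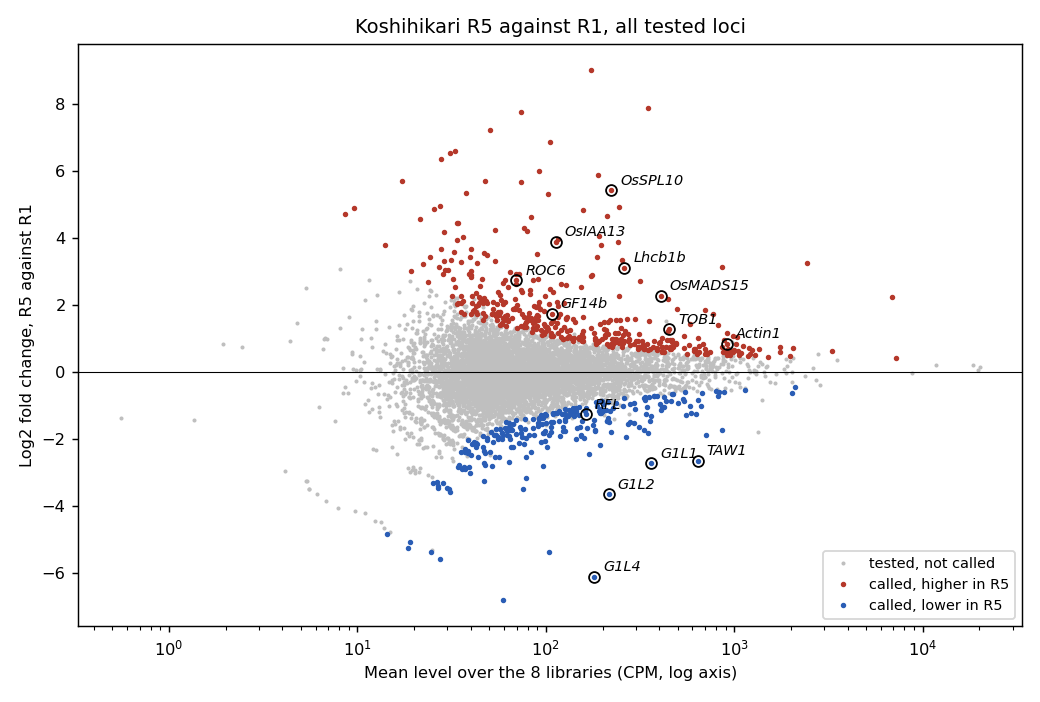
Each point is a tested locus, with its mean level over the 8 Koshihikari R1 and R5 libraries (CPM, log axis) against its log2 fold change in R5 over R1. Red points (405) were called higher and blue points (243) lower in R5, and grey points were not called. The ALOG loci TAW1, G1L1, G1L2 and G1L4 lie among the most negative of the well-expressed loci, and OsSPL10 and OsIAA13 among the most positive.

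The ALOG family was lower in R5 almost throughout. Of 10 listed members 6 were tested, and 5 of these fell from R1 to R5 while none rose, beside 3.28% of all tested loci that fell. The median log2 fold change of the 6 was -2.69, beside -0.05 over all tested loci. TAW1 (LOC_Os10g33780, chromosome 10), which keeps rice branch meristems from turning into spikelets too early, had the smallest p of the whole comparison. Its level was 1015, 894, 999.7, 808 and 955 CPM in R1 replicates 1 to 5 and 212, 88.6 and 139 CPM in R5 replicates 2, 3 and 5. Every R5 library was thus far below every R1 library, at 146 ± 61.9 CPM (SD, n = 3) against 934 ± 85.0 CPM (n = 5). The change was 6.27-fold (log2 fold change -2.65, SE 0.233, adjusted p = 3.79e-17).

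Next in order of p among the ALOG genes were G1L1 and G1L2. G1L1 (LOC_Os02g07030) had 719, 502, 578, 421 and 437 CPM in R1 and 77.0, 111 and 52.1 CPM in R5. G1L2 (LOC_Os06g46030) had 349, 196, 303, 353 and 442 CPM in R1 and 48.1, 22.1 and 8.69 CPM in R5. For both genes the groups did not overlap. The log2 fold change was -2.73 for G1L1 (SE 0.294, adjusted p = 9.04e-13) and -3.66 for G1L2 (SE 0.398, adjusted p = 1.3e-12).

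G1L4 (LOC_Os04g43580) came close to the limit of detection in R5. It had 211, 229, 431, 265 and 294 CPM in R1 and 0, 11.1 and 0 CPM in R5. Those levels are 193 UMIs over the R1 libraries and 1 UMI over the R5 libraries, a rate 95.7-fold lower with a 95% counting interval of 17.0 to 3799 (adjusted p = 2.95e-06). G1L3 (LOC_Os02g41460) had 159, 76.3, 248, 183 and 156 CPM in R1 and 9.62, 111 and 43.4 CPM in R5, so the groups overlapped. Its log2 fold change was -1.65 (SE 0.416, adjusted p = 0.00406), and without R5 replicate 2 the call was lost (adjusted p = 0.122).

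The remaining tested member, G1L6 (LOC_Os02g56610), was at 19.3 ± 8.58 CPM in R5 and 50.9 ± 27.9 CPM in R1 and was not called (log2 fold change -1.42, SE 0.746, adjusted p = 0.253). The 4 untested members had at most 8 UMIs over the R1 libraries and 7 over the R5 libraries. They include G1, which specifies the sterile lemma (2 and 3 UMIs). The summed level of the 10 members was 1640 to 2324 CPM of all UMIs in the R1 libraries and 287 to 319 CPM in the R5 libraries. These are bulk samples, in which fewer cells of a type and less RNA per cell cannot be told apart.

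**Figure D2:**
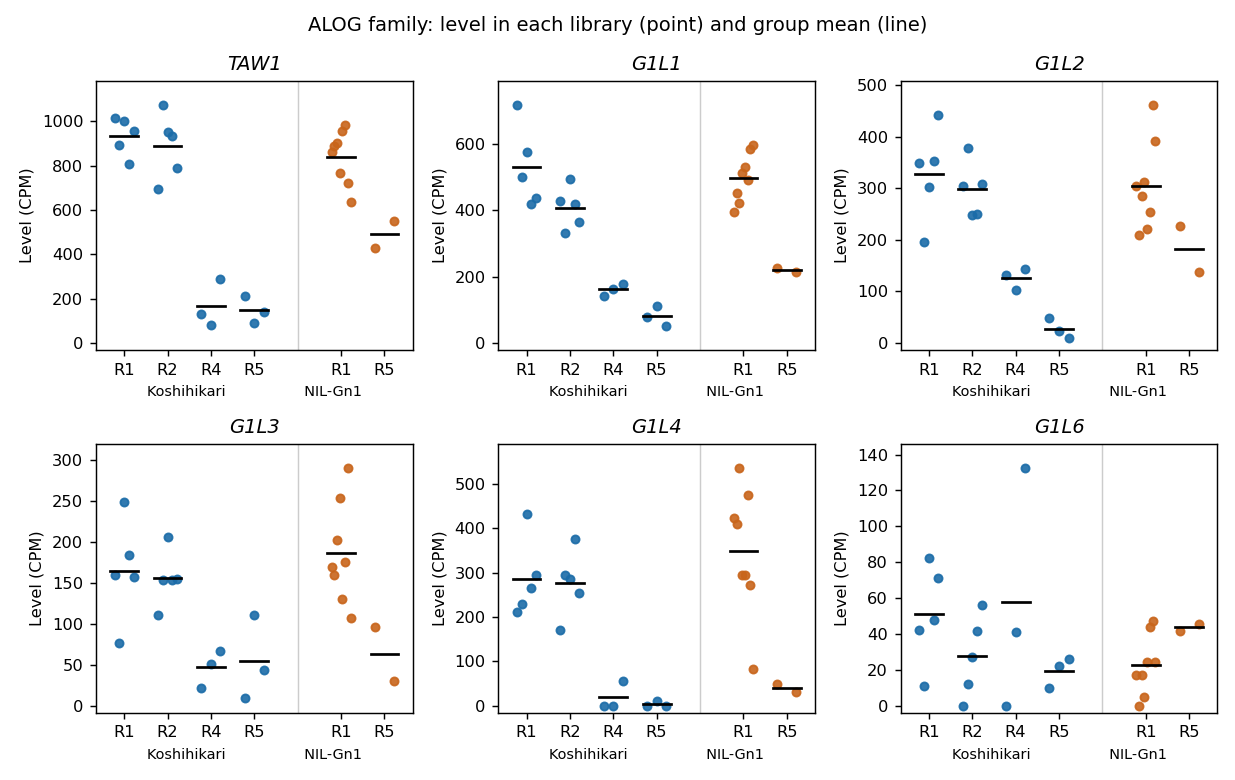
Level (CPM, linear axis) of the 6 tested ALOG genes in each library (points) with the group mean (line), for Koshihikari at R1, R2, R4 and R5 (blue) and NIL-Gn1 at R1 and R5 (orange). In Koshihikari, TAW1 stands at 808 to 1015 CPM in R1 and 88.6 to 212 CPM in R5, and in NIL-Gn1 it stands at 430 and 549 CPM in R5.

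Among the flowering MADS-box genes 1 of 7 tested members rose and none fell, with a median log2 fold change of 1.02. That median was 0.56 without R5 replicate 2 and 0.36 without R5 replicate 5, and it was -0.20 over the 5 members that passed a minimum mean of 10 counts. Here and in the lists below, 1 call in a direction is too few to set apart from the share over all tested loci. That share was 5.47% for higher and 3.28% for lower loci. The called gene was OsMADS15 (LOC_Os07g01820), an APETALA1/FRUITFULL-class factor of floral transition. Its level was 95.2, 54.5, 110, 285 and 232 CPM in R1 and 847, 875 and 756 CPM in R5. The groups did not overlap, and the change was 4.84-fold (log2 fold change 2.28, SE 0.561, adjusted p = 0.00897). R1 replicates 4 and 5, with the highest R1 levels of OsMADS15, also had the highest R1 levels of OsMADS14.

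OsMADS14 (LOC_Os03g54160), of the same class, had 116, 43.6, 147, 163 and 214 CPM in R1 and 414, 221 and 365 CPM in R5. Its groups did not overlap either, yet it was not called (log2 fold change 1.19, SE 0.472, adjusted p = 0.12, with 4 of 18 alternative fits calling it). OsMADS34 (LOC_Os03g54170), a SEPALLATA-class gene of spikelet meristem specification also named PAP2, was at 12.1 ± 9.67 CPM in R1 and 67.5 ± 45.4 CPM in R5 (log2 fold change 2.23, SE 0.778, adjusted p = 0.054, with 4 of 13 alternative fits calling it). OsMADS18 (LOC_Os07g41370) was at 718 CPM in R1 and 588 CPM in R5 on average and did not pass (log2 fold change -0.31, SE 0.209, adjusted p = 0.411).

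OsMADS22, OsMADS47 and OsMADS55 form the SVP class, which TAW1 is known to promote in rice. OsMADS22 was tested and not called (log2 fold change -0.40, SE 0.214, adjusted p = 0.26). OsMADS47 had 23 UMIs in R1 and 4 in R5, and OsMADS55 had 18 and 2, both too few to be kept for testing. Per UMI sequenced, their R5 rates were 0.351 (95% counting interval 0.0882 to 1.03) and 0.224 (0.0252 to 0.936) of the R1 rates. These intervals cover counting error only. In edgeR with no low-count filter neither gene was called (adjusted p = 0.524 and 0.447).

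In the florigen complex list 1 of 6 tested members rose and 1 fell, with a median log2 fold change of -0.04. GF14b (LOC_Os04g38870), a 14-3-3 protein of the family that bridges florigen and its bZIP partner, had 31.7, 76.3, 55.0, 61.1 and 58.0 CPM in R1 and 212, 199 and 165 CPM in R5. All R5 libraries were above all R1 libraries (log2 fold change 1.74, SE 0.353, adjusted p = 0.000188). The other 14-3-3 genes were not called in edgeR with these settings, and GF14c, known in rice as the florigen receptor, was at 863 CPM in R1 and 1204 CPM in R5 (log2 fold change 0.48, SE 0.167, adjusted p = 0.0523). GF14c was called in 5 of 18 alternative fits, DESeq2 and limma-voom among them (adjusted p = 0.0204 to 0.297 over the 18). The lower locus was LOC_Os09g36910, entered in the list as OsFD1 (log2 fold change -1.51, SE 0.445, adjusted p = 0.0306). Its call was lost without R1 replicate 1, 4 or 5 and without any 1 of the 3 R5 libraries (adjusted p = 0.0505 to 0.107). The call was also lost with limma-voom (0.0841) and, in edgeR, with a replicate block (0.0824). Hd3a, a florigen gene, had no UMI in either group.

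Floral organ identity genes were mostly below the level needed for testing, since 15 of 18 listed members were left out and 6 of those had no UMI in R1 or R5. Of the 3 tested, 1 fell and none rose. It was LOC_Os07g13170, entered as SNB, at 391, 338, 183, 176 and 281 CPM in R1 and 67.4, 77.5 and 34.7 CPM in R5. The groups did not overlap (log2 fold change -2.19, SE 0.377, adjusted p = 8.56e-06). DL, a YABBY gene of carpel and leaf midrib formation, was at 263 CPM in R1 and 103 CPM in R5 and was not called in edgeR with these settings (log2 fold change -1.27, SE 0.454, adjusted p = 0.075). Of 18 alternative fits 6 called DL, DESeq2 and the fit of only the groups compared among them (adjusted p = 0.008 to 0.285 over the 18).

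The SEPALLATA-class genes OsMADS5 and OsMADS1 had 8 and 5 UMIs over the R5 libraries and none over the R1 libraries. Per UMI sequenced, the lower 95% counting bounds of the R5 to R1 ratio were 3.44 and 1.85. In edgeR with no low-count filter OsMADS5 was called (adjusted p = 0.0186) and OsMADS1 was not (0.0554). FZP, which ends branching in the spikelet, had no UMI in either group, which allows up to 3.97 CPM of all UMIs over R1 and 8.00 over R5.

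Of 9 tested branching genes 1 rose and 1 fell, and the median log2 fold change was 0.16, or 0.03 without R1 replicate 2 and -0.06 without R5 replicate 3. RFL (LOC_Os04g51000), the rice LEAFY homologue, which promotes panicle branching, had 222, 164, 174, 258 and 219 CPM in R1 and 67.4, 111 and 86.9 CPM in R5. Each R5 library lay below each R1 library, a 2.39-fold difference (log2 fold change -1.26, SE 0.342, adjusted p = 0.0088). Without R5 replicate 2 the RFL call was lost (adjusted p = 0.093). LOC_Os03g57240, entered as DST, was higher in R5, at 270 CPM on average against 130 CPM, with no overlap of the groups (log2 fold change 1.02, SE 0.274, adjusted p = 0.00777). LOC_Os09g26999, entered as DEP1, was not called (log2 fold change 0.63, SE 0.343, adjusted p = 0.279).

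The KNOX and BELL homeobox list, which holds the genes that keep shoot meristems undifferentiated, had no call among 7 tested members in edgeR, DESeq2 or limma-voom, and 1 member had an unadjusted p under 0.05. OSH1 (LOC_Os03g51690) had 148, 273, 349, 421 and 249.9 CPM in R1 and 221, 255 and 313 CPM in R5 (log2 fold change -0.14, SE 0.298, adjusted p = 0.842). The R5 libraries lay inside the R1 range, and leaving out R1 replicate 4 or R5 replicate 2 turned the sign. FON1 (LOC_Os06g50340), the CLAVATA1-type receptor kinase that limits meristem size, had 19 UMIs in R1 and 5 in R5 and was not called (log2 fold change -0.72, SE 0.919, adjusted p = 0.715). Of 6 tested meristem maintenance genes 1 fell, LOC_Os08g40030, entered as OsCUC3. It had 74.0, 98.1, 110, 156 and 138 CPM in R1 and 9.62, 0 and 17.4 CPM in R5. Its 82 and 3 UMIs give a rate 13.6-fold lower in R5 (95% counting interval 4.48 to 67.1, adjusted p = 1.52e-05).

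Some genes of lateral organs and of the epidermis rose, 1 of 4 and 2 of 5 tested. TOB1 (LOC_Os04g45330), a YABBY factor needed for spikelet meristems and lateral organs, had 328, 251, 349, 251 and 299 CPM in R1 and 789, 686 and 660.2 CPM in R5. The groups were well apart (log2 fold change 1.27, SE 0.208, adjusted p = 1.89e-06). TOB1 was the call among 4 tested YABBY genes, whose log2 fold changes ran from -0.79 to 1.67 with a median of 0.85. Without R5 replicate 2, when 3 were tested, the median was 0.52. The summed YABBY level was 463 to 579 CPM of all UMIs in R1 and 905 to 951 in R5. It leaves out DL, a YABBY gene kept on the floral organ list, which was lower in R5 on average.

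Among HD-Zip IV genes, homeobox genes expressed in the outer cell layer, 2 of 5 tested rose and none fell, beside 5.47% of all tested loci that rose. Their median log2 fold change was 1.08, or 0.27 without R5 replicate 2. The summed level of the 7 listed genes overlapped, at 295 to 715 CPM of all UMIs in R1 and 638 to 905 in R5. ROC6 (LOC_Os09g35760) had 10.6, 43.6, 36.7, 6.79 and 17.8 CPM in R1 and 154, 133 and 156 CPM in R5 (log2 fold change 2.75, SE 0.499, adjusted p = 2.25e-05). ROC3 (LOC_Os10g42490) was at 104 CPM in R1 and 247 CPM in R5 on average, without overlap (log2 fold change 1.23, SE 0.3, adjusted p = 0.00283). The ROC3 call was lost without R5 replicate 2 (adjusted p = 0.0866). ROC1, another member of the family, was not called (log2 fold change -0.28, SE 0.386, adjusted p = 0.736).

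The SPL transcription factors, targets of miR156 in many plants, showed 1 large change. OsSPL10 (LOC_Os06g44860), known in rice for trichome formation, had 10.6, 10.9, 36.7, 6.79 and 4.46 CPM in R1 and 693, 675 and 339 CPM in R5. All 3 R5 values lay far above the highest R1 value. OsSPL10 rose 43.4-fold (log2 fold change 5.44, SE 0.582, adjusted p = 4.62e-08), from 8 UMIs over R1 to 172 over R5. The other 11 tested SPL genes were not called, though OsSPL12 was without R1 replicate 5 (adjusted p = 0.038), and the median over the 12 was 0.02. OsLG1, the SPL gene of ligule formation, had no UMI over R1 and 12 over R5 and was not kept for testing. In edgeR with no low-count filter it was called higher in R5 (adjusted p = 0.00142). OsSPL14, known as IPA1 for its part in panicle branching, was at 256 CPM in R1 and 272 CPM in R5 (log2 fold change 0.05, SE 0.396, adjusted p = 0.964). In the GRF list, factors of cell proliferation, 1 of 13 tested members rose. It was OsGRF7, from 250.3 CPM to 411 CPM (log2 fold change 0.74, SE 0.23, adjusted p = 0.026). It was no longer called without R1 replicate 4, R5 replicate 2 or R5 replicate 5 (adjusted p = 0.0523, 0.0625 and 0.184). The OsGRF7 call was also lost with no low-count filter (0.0518), with a replicate block (0.0613) and after thinning (0.119).

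**Figure D3:**
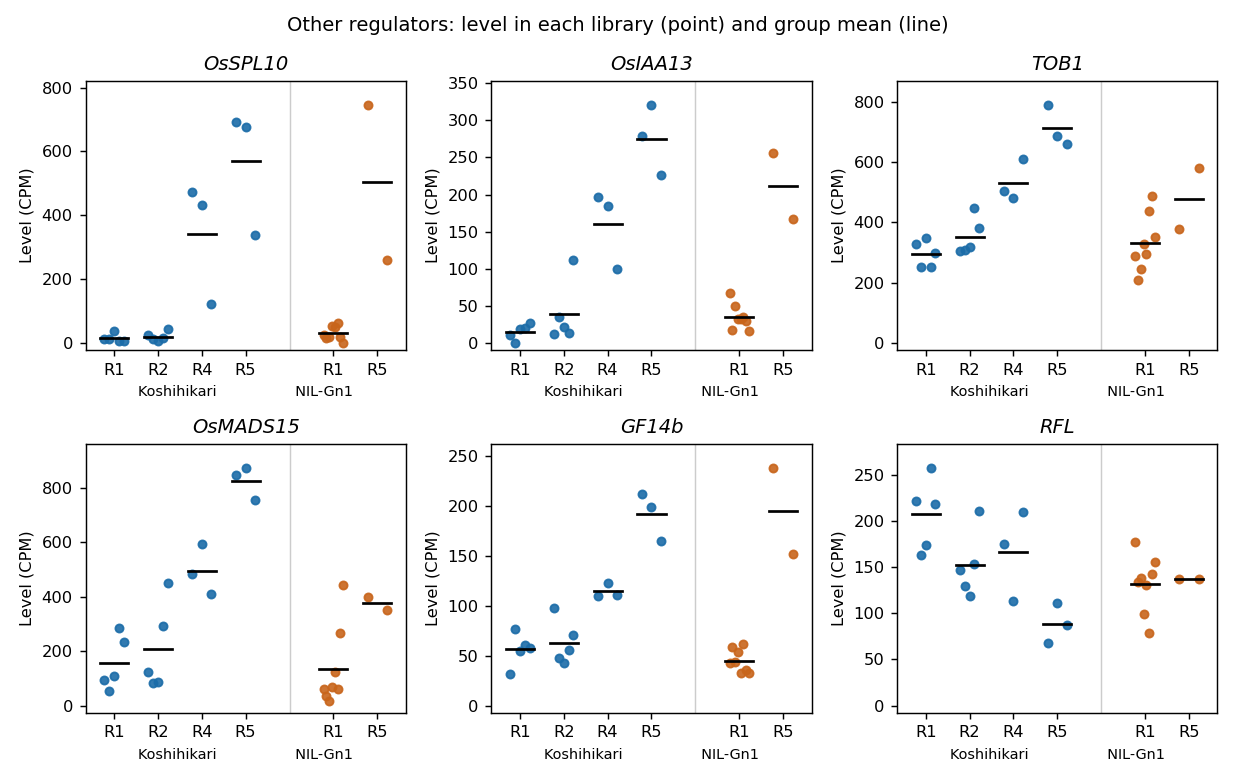
Level (CPM, linear axis) of 6 regulators in each library (points) with the group mean (line), for Koshihikari at R1, R2, R4 and R5 (blue) and NIL-Gn1 at R1 and R5 (orange). OsSPL10, OsIAA13, TOB1, OsMADS15 and GF14b are higher in all Koshihikari R5 libraries than in any R1 library, and RFL is lower.

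Of 13 tested auxin genes 1 was higher and 1 lower, counts too small to set apart from the 5.47% and 3.28% of all tested loci. Their median log2 fold change was -0.42, or -0.19 without R5 replicate 3. OsIAA13 (LOC_Os03g53150), an Aux/IAA repressor of auxin responses, had 10.6, 0, 18.3, 20.4 and 26.8 CPM in R1 and 279, 321 and 226 CPM in R5. The groups were far apart, and the fitted difference was 14.8-fold (log2 fold change 3.89, SE 0.446, adjusted p = 1.29e-11). The lower member was LOC_Os04g56850, entered as OsARF11, at 166 CPM in R1 and 42.7 CPM in R5 (log2 fold change -1.91, SE 0.429, adjusted p = 0.000865).

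In the gibberellin list 2 of 6 tested loci fell and none rose in edgeR, beside 3.28% of all tested loci that fell. DESeq2 and limma-voom each called 1. Of the same 6 loci, 2 were called lower in R4 against R2, beside 2.55% of all tested loci. In NIL-Gn1 R5 against R1, 2 were called higher and none lower, beside 2.08% called higher. No line difference was called in this list. LOC_Os04g44150, entered as OsGA2ox6, had 159, 65.4, 138, 319 and 143 CPM in R1 and 0, 0 and 8.69 CPM in R5. Its 115 UMIs in R1 and 1 in R5 give a rate 57.0-fold lower (95% counting interval 10.0 to 2271, adjusted p = 3.14e-07). LOC_Os05g06670, entered as OsGA2ox1, had 35 and 2 UMIs (8.68-fold lower, interval 2.23 to 74.5, adjusted p = 0.0302). That call was lost without R1 replicate 4, R5 replicate 3 or R5 replicate 5 (adjusted p = 0.0771, 0.137 and 0.173), with DESeq2 (0.0907), with limma-voom (0.0646) and after thinning (0.12). SLR1, the DELLA repressor of gibberellin responses, was not called (log2 fold change -0.18, SE 0.27, adjusted p = 0.757).

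Of 4 tested cytokinin genes 1 fell. OsCKX3 (LOC_Os10g34230), a cytokinin oxidase that degrades the hormone, had 30 UMIs over R1 (20.4 to 74.0 CPM per library) and 1 over R5, a rate 14.9-fold lower (95% counting interval 2.47 to 607, adjusted p = 0.009). Leaving out R5 replicate 3 or 5 ended this call (adjusted p = 0.0542 and 0.0786). OsCKX2 (LOC_Os01g10110), the cytokinin oxidase at Gn1, had 1 UMI over R1 and none over R5, too few to be kept for testing.

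Photosynthesis markers formed the list with the most calls. Of 15 tested members 12 rose and none fell, beside 5.47% of all tested loci that rose, and their median log2 fold change was 1.89. Lhcb1b (LOC_Os01g41710), a light-harvesting chlorophyll-binding protein of photosystem II, had 10.6, 54.5, 91.7, 95.0 and 66.9 CPM in R1 and 289, 819 and 660.2 CPM in R5 (log2 fold change 3.12, SE 0.582, adjusted p = 0.000607). Lhcb3 (LOC_Os07g37550) had 21.1, 54.5, 18.3, 88.2 and 26.8 CPM in R1 and 116, 188 and 365 CPM in R5 (log2 fold change 2.39, SE 0.432, adjusted p = 3.28e-05). In both genes all R5 libraries exceeded all R1 libraries, and R5 replicate 2 was the lowest of the 3. The symbols of the other 10 called members rest on the list alone, and their log2 fold changes were 1.27 to 3.06. The count of calls was 8 to 12 when 1 library was left out, lowest without R5 replicate 5, and 7 of 12 tested after thinning to the smallest library. Light-harvesting genes are near-identical in part, and how reads were shared between copies is not given.

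The summed level of all 19 listed photosynthesis markers was 577, 760, 659, 1260 and 651 CPM of all UMIs in R1 replicates 1 to 5. It was 2165, 2989 and 3885 CPM of all UMIs in R5 replicates 2, 3 and 5. The 3 small subunit genes of Rubisco on the list had 5 UMIs over R1 and 9 over R5, and Rca, the Rubisco activase gene, had none in either group. These markers moved with the same libraries as the changes described above, and their part in those changes was not tested. The summed ALOG level in the same 3 R5 libraries was 294, 319 and 287 CPM of all UMIs. Secondary wall genes were near the limit in both groups, with 15 UMIs over R1 and 9 over R5 for 2 listed genes.

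Reference genes often taken as constant were higher in Koshihikari R5. Of 5 tested, 4 rose, beside 5.47% of all tested loci, and the median log2 fold change was 0.54. The count of 4 was 2 with upper quartile scaling and 2 without R1 replicate 1, R1 replicate 4, R5 replicate 3 or R5 replicate 5. In R4 against R2, 3 of the 5 were called higher, beside 3.44%. In NIL-Gn1 R5 against R1 none was called (median log2 fold change -0.08), and no line difference was called for these genes. Actin1 (LOC_Os03g50885) had 751, 621, 825, 651 and 674 CPM in R1 and 1444, 1162 and 1190.0 CPM in R5 (log2 fold change 0.85, SE 0.167, adjusted p = 0.000101). The elongation factor gene eEF1a-1 (LOC_Os03g08010) was at 768 CPM in R1 and 1219 CPM in R5 (log2 fold change 0.67, SE 0.157, adjusted p = 0.00161). The glyceraldehyde-3-phosphate dehydrogenase genes GAPDH (0.51, SE 0.165, adjusted p = 0.0329) and GAPC (0.54, SE 0.183, adjusted p = 0.0451) were the other two, and their calls were lost in 8 and 10 of 18 alternative fits. SUS1, a sucrose synthase and 1 of 3 tested sucrose genes, was at 2728 CPM in R1 and 4222 CPM in R5 (log2 fold change 0.63, SE 0.204, adjusted p = 0.0465). Its call was lost without any 1 of R1 replicates 1, 3, 4 and 5 or R5 replicates 2 and 3 (adjusted p = 0.0579 to 0.218).

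For R5 against R1 in Koshihikari, cell division genes and core histones gave no calls in edgeR, DESeq2 or limma-voom. Of all tested loci 8.75% were called in edgeR. Tested were 14 cell division genes, among them PCNA and the MCM helicase subunits, and 21 histone H4, H3 and H2B loci. Of these 35 loci, 2 had an unadjusted p under 0.05 in edgeR. LOC_Os07g36500, entered as H4, was called higher in 2 of 18 alternative fits (adjusted p = 0.0308 to 0.74 over the 18). Histones were called in other comparisons. In Koshihikari R4 against R2, 3 of 7 H2B and 1 of 6 H3 loci were higher, beside 3.44% of all tested loci. In NIL-Gn1 R5 against R1, 2 H2B, 1 H3 and 1 H4 loci were lower, beside 0.432%. Cell division genes had no call in either, and no line difference was called for these lists. The lack of calls for R5 against R1 in Koshihikari does not show constant levels. In simulation 18 of 100 2-fold changes were recovered, planted in loci drawn at random from all tested loci, whatever their level. Recovery for loci as abundant as these was not simulated apart. PCNA, the sliding clamp of DNA replication, was at 387 CPM in R1 and 358 CPM in R5 (log2 fold change -0.11, SE 0.221, adjusted p = 0.838). The brassinosteroid, jasmonate, primary wall, heat shock and G protein lists also held no call in edgeR, DESeq2 or limma-voom. The 2 tested G protein members were negative (median log2 fold change -1.09), and 1 was called lower without R5 replicate 3. Outside the lists the smallest p-values among higher loci belonged to LOC_Os03g47940 (log2 fold change 3.45, SE 0.335, adjusted p = 1.91e-14) and LOC_Os03g61970 (1.88, SE 0.196, adjusted p = 2.71e-13). Among lower loci they belonged to LOC_Os05g13620 (-1.89, SE 0.245, adjusted p = 4.02e-08) and LOC_Os01g68589 (-1.94, SE 0.305, adjusted p = 7.91e-07).

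**Figure D4:**
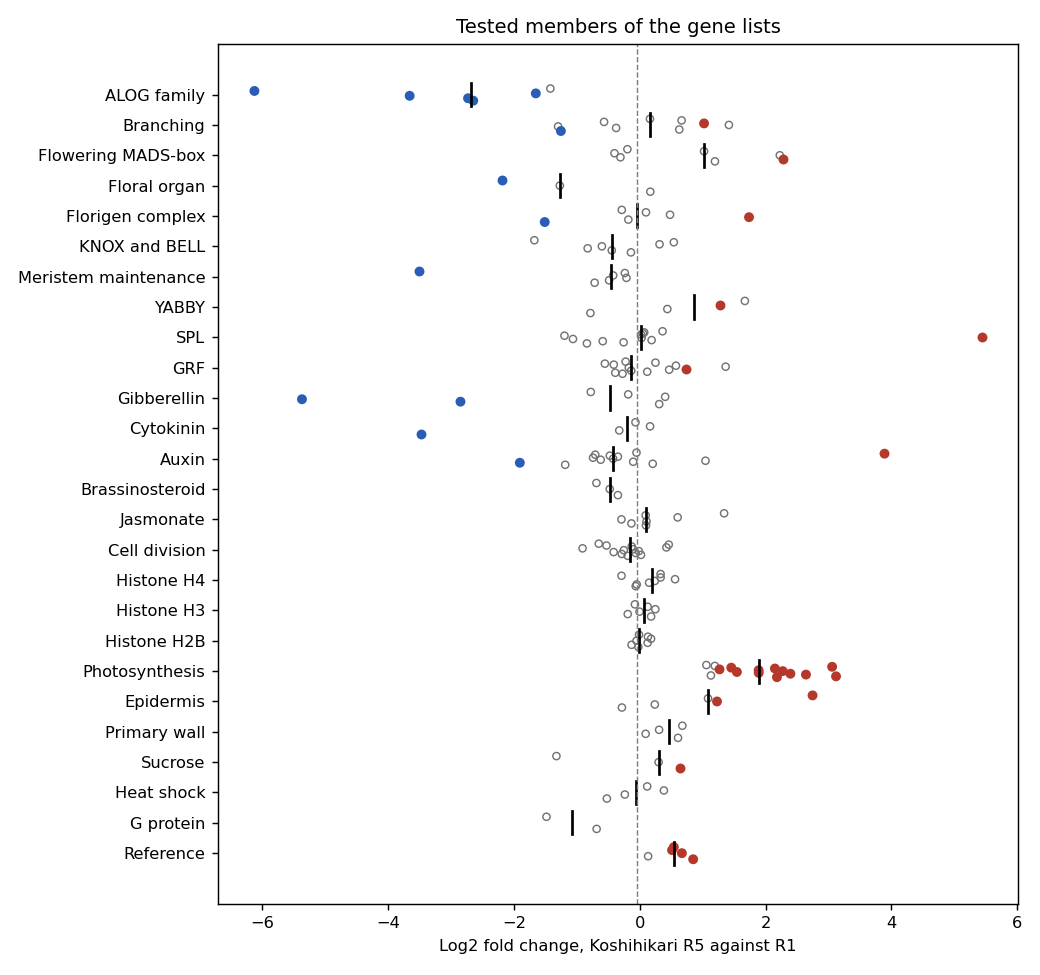
Log2 fold change in Koshihikari R5 over R1 of each tested list member (points), with the list median (black bar) and the median of all tested loci (dashed line, -0.05). Filled red points were called higher, filled blue points lower and open points were not called. The ALOG list lies to the left and the photosynthesis list to the right of all other lists with 6 or more members.

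The intermediate codes gave a second set of libraries for the same direction. R4 against R2 in Koshihikari shares no library with R5 against R1, though all values come from 1 fit, and it called 444 loci (6.00%), 255 higher (3.44%) and 189 lower (2.55%). Of the 405 loci higher in R5, 142 were also higher in R4, which is 35.1% of the first list and 55.7% of the second. Of the 243 lower loci 66 were also lower in R4 (27.2% and 34.9%). None was called in opposite directions. The sign was the same for 94.1% of the higher and 89.3% of the lower loci, beside 47.9% and 52.1% of all tested loci with those signs. With R2 reduced to replicates 2 and 3, an alternative added after seeing the data, 228 loci were called in R4 against R2 and 127 of them were called in the same direction in R5 against R1. Leaving out R4 replicate 2, 3 or 4 lowered the 444 calls to 253, 201 and 280.

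The ALOG genes again fell together between R2 and R4, with 5 of 6 called lower, beside 2.55% of all tested loci. TAW1 was at 696 to 1074 CPM in the 5 R2 libraries and at 167 ± 107 CPM (SD, n = 3) in R4, where the highest library had 288 CPM (log2 fold change -2.42, SE 0.236, adjusted p = 1.76e-14). Also called higher in R4 were OsSPL10 (4.31, SE 0.645, adjusted p = 5.61e-05), OsIAA13 (2.16, SE 0.468, adjusted p = 0.00106) and ROC6 (2.14, SE 0.512, adjusted p = 0.00359). OsMADS15 (1.40, SE 0.626, adjusted p = 0.201) and TOB1 (0.61, SE 0.222, adjusted p = 0.079) were not called there. RFL was at 152 CPM in R2 and 166 CPM in R4 on average (log2 fold change 0.17, SE 0.333, adjusted p = 0.832).

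The steps at either end share libraries with R5 against R1 and are given only side by side. In edgeR neither R2 against R1 nor R5 against R4 held a called locus, with 439 and 536 loci at an unadjusted p under 0.05. DESeq2 and limma-voom called no locus for R2 against R1 and 1 each for R5 against R4. TAW1 had a log2 fold change of -0.07 from R1 to R2, -2.42 from R2 to R4 and -0.16 from R4 to R5. For G1L2 the corresponding values were -0.20, -1.23 and -2.24, and for G1L1 they were -0.33, -1.36 and -1.04. OsSPL10 had 0.41, 4.31 and 0.72, and OsMADS15 had 0.14, 1.40 and 0.73. The median log2 fold change of the 15 photosynthesis markers was 1.31 from R2 to R4, where 4 were called.

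The same codes were compared in NIL-Gn1, with 8 R1 and 2 R5 libraries. There 186 loci were called (2.51%), 154 higher (2.08%) and 32 lower (0.432%). The depth differs, as the R5 libraries of NIL-Gn1 held 201920 and 76743 UMIs, and the count fell to 26 without R5 replicate 1. Of the 405 loci higher in Koshihikari R5, 107 were also higher in NIL-Gn1 R5, 26.4% of the first list and 69.5% of the second. Of the 243 lower loci 10 were also lower (4.12% and 31.2%), and 1 was called in the opposite direction. The median NIL-Gn1 log2 fold change was 0.64 over the loci higher in Koshihikari and -0.40 over those lower, beside -0.04 over all tested loci. These loci were chosen by their call in Koshihikari.

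OsSPL10, OsIAA13 and GF14b rose in NIL-Gn1 too. OsSPL10 was at 0 to 61.4 CPM in the 8 R1 libraries (median 21.5) and at 746 and 259 CPM in R5 (log2 fold change 4.15, SE 0.46, adjusted p = 1.45e-07). OsIAA13 had a log2 fold change of 2.59 (SE 0.397, adjusted p = 5.64e-07) and GF14b of 2.17 (SE 0.355, adjusted p = 3.25e-06). OsMADS15 was not called (1.60, SE 0.652, adjusted p = 0.262), nor was TOB1 (0.48, SE 0.234, adjusted p = 0.357). For these 5 genes the difference between lines was not called either (adjusted p = 0.37 to 0.876).

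The difference between the lines in R5 against R1 was tested as an interaction, and 7 loci were called (0.0945%), 1 with a more positive (0.0135%) and 6 with a more negative change in Koshihikari (0.0810%). Both list members among them were ALOG genes. TAW1 in NIL-Gn1 was at 637 to 983 CPM in R1 (median 874) and at 430 and 549 CPM in R5, a fall of 0.81 on the log2 scale (SE 0.216, adjusted p = 0.0162). The NIL-Gn1 R5 values were below its own R1 range and above all 3 Koshihikari R5 values. The change of TAW1 was 1.84 log2 units more negative in Koshihikari (SE 0.318, adjusted p = 0.00037), and it was called in all 27 alternative fits.

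G1L2 in NIL-Gn1 was at 209 to 462 CPM in R1 and at 227 and 137 CPM in R5, not called within that line (log2 fold change -0.66, SE 0.291, adjusted p = 0.287). Its change was 3.00 log2 units more negative in Koshihikari (SE 0.53, adjusted p = 0.00037). Leaving out NIL-Gn1 R5 replicate 1 ended that call (adjusted p = 0.232). G1L1 fell in both lines, by 1.16 in NIL-Gn1 (SE 0.268, adjusted p = 0.00276), and its line difference was not called (-1.57, SE 0.416, adjusted p = 0.107). G1L4 fell in NIL-Gn1 by 3.03 (SE 0.574, adjusted p = 0.000822), and the interaction did not pass for it (-3.10, SE 1.46, adjusted p = 0.492) or for G1L3 (-0.30, SE 0.614, adjusted p = 0.919). The summed photosynthesis level was 1303 and 1818 CPM of all UMIs in the NIL-Gn1 R5 libraries, below the 2165 to 3885 CPM of all UMIs in Koshihikari R5. Its part in the line difference was not tested.

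**Figure D5:**
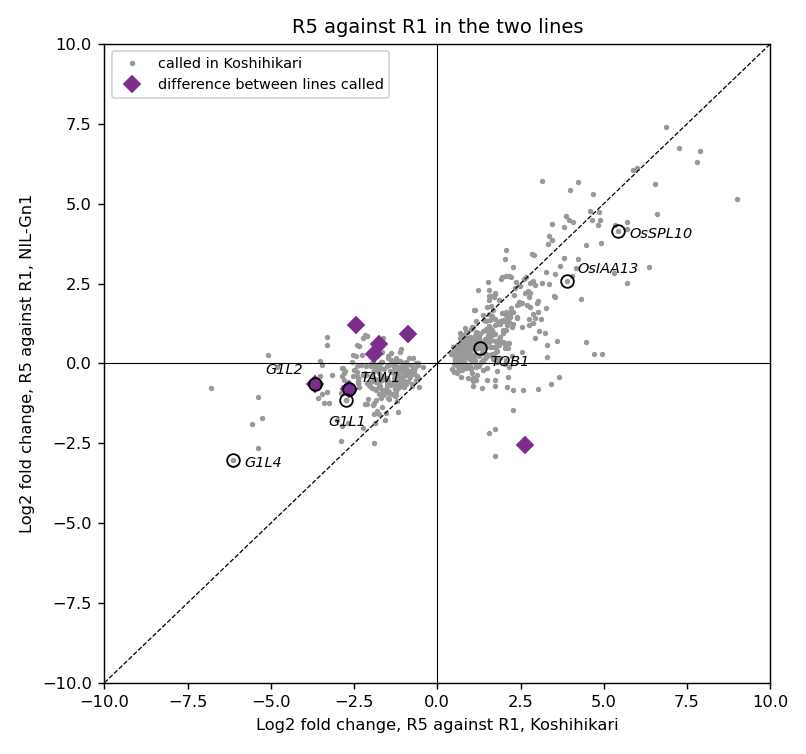
Log2 fold change of R5 over R1 in Koshihikari (horizontal) against NIL-Gn1 (vertical) for the 648 loci called in Koshihikari (grey) and the 7 loci whose change differed between lines (purple diamonds), with the line of equal change dashed. TAW1 lies at -2.65 and -0.81 and G1L2 at -3.66 and -0.66, above the dashed line, while OsSPL10 lies at 5.44 and 4.15.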

How the data were processed

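The authors deposited 1 table of raw UMI counts per locus, with no normalization, for 55801 MSU locus identifiers, of which 24425 had a UMI. Per the labels' protocols, each library started from 100 pg of RNA and took 11 to 15 cycles of PCR. Bowtie2 and Subread 2.1 are named in the submitters' processing notes, and the genome build and annotation are not given in the sources used here. Identifiers therefore carry no coordinates, and no sequence is shown.

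The model covered all 35 libraries and used edgeR 4.0.16 under R 4.3.3 (TMM, filterByExpr, robust quasi-likelihood F-test, 8 groups by line and code). The filter kept 7406 loci holding 86.7% of UMIs, and the common dispersion was 0.0444. Benjamini-Hochberg adjustment ran over all tested loci. Adjusted p-values of single loci come from edgeR unless DESeq2, limma-voom or a range over alternative fits is named. SE is the log2 fold change divided by the square root of F. Counting intervals are 95% exact intervals for the ratio of UMI rates and cover counting error only. No pair of libraries within R1 or R5 agreed within sampling noise (chi-square per degree of freedom at least 1.59). The script was tested on simulated data with known changes.

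Members and gene lists were chosen with earlier results of these data known. Of 297 loci in 27 lists, 203 symbols matched the RefSeq gene table by chromosome and place (within 1 Mb), and 85 were not in it and rest on the list alone ("entered as", and the photosynthesis and histone loci not named). The other 9 were left out. Named were up to 30 called list members by smallest p, 11 genes whatever their call, and 2 higher and 2 lower loci outside the lists with a log2 fold change of at least 1. Other list members were chosen after their values were seen. Alternatives were RLE and upper quartile scaling, limma-voom (limma 3.58.1), DESeq2 1.42.0, a minimum mean of 10 counts or no filter, fewer groups, a replicate block, thinning to 76743 UMIs and leaving out each library. Plots and tables used Python 3.11.15, scipy 1.17.1 and matplotlib 3.10.9.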

Additional observations from a re-analysis of the deposited data

Results flagged for a closer look

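In 2 of 49 named loci 1 of the 5 Koshihikari R1 libraries lay far from the others by Dixon's test, where chance flags about 1 in 20 groups. OsSPL10 was at 36.7 CPM in R1 replicate 3, a gap of 0.8 of the group's range, which still lies below the lowest R5 value of 339 CPM. Lhca1, a symbol that rests on the list alone, was at 88.2 CPM in R1 replicate 4, a gap of 0.834 of the range, and this library overlapped R5 (86.6 to 155 CPM).

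The R5 against R1 change differed between Koshihikari and NIL-Gn1 for 7 loci in edgeR's interaction test. TAW1 differed by -1.84 on the log2 scale (adjusted p = 0.00037) and G1L2 by -3.00 (adjusted p = 0.00037). Of the others, LOC_Os02g12750 had -1.74 in Koshihikari and 0.61 in NIL-Gn1 (difference -2.34, adjusted p = 0.00193), and LOC_Os02g46420 had 2.64 and -2.55 (difference 5.19, adjusted p = 0.0133).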

How the results depend on the processing

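For R5 against R1 in Koshihikari, 334 loci were called after thinning, 209 higher and 125 lower, with 4623 tested, and 390 to 590 when 1 library was left out. The other settings gave 457 to 663 calls. The share of higher calls was 62.5%, 56.3% with upper quartile scaling, 65.3% with RLE and 76.5% with limma-voom. Same-numbered R1 and R5 libraries did not deviate together (r = 0.00548, 0.0029 and -0.0144 for numbers 2, 3 and 5), and the replicate block gave 460 calls, 440 of them among the 648. Of the loci named, OsGRF7 (adjusted p = 0.0613), GAPDH (0.276) and LOC_Os09g36910, entered as OsFD1 (0.0824), were not called with the block. R4 against R2 had 217 calls with only the groups compared, 269 with the replicate block, 292 after thinning, 228 with R2 reduced, and 201 to 429 without 1 library. R5 against R1 in NIL-Gn1 had 107 calls at a mean of 10 counts, 290 with limma-voom, 89 after thinning and 26 to 191 without 1 library. The line difference had 3 calls after thinning and 2 to 11 without 1 library, lowest without NIL-Gn1 R5 replicate 1. A group of 2 then rests on 1 library, assumed to vary like the others. OSH1 ranged from -0.29 to 0.067 without 1 library and was positive without R1 replicate 4 (0.067) and R5 replicate 2 (0.004). The causes were not tested. Over all named loci, 770 of the alternative fits kept the side of the threshold and the direction, 67 lost a call and 8 gained 1. For Koshihikari R5 against R1, simulation with 6142 loci tested recovered 18 of 100 planted 2-fold and 65 of 100 planted 4-fold changes.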

Other observations

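In identifier order among tested loci, 49 of the 405 higher loci (12.1%) were next to another higher locus, beside 10.7% of all tested loci next to one. For the 243 lower loci these values were 36 (14.8%) and 6.47%. The difference was not tested. The longest runs were 3 tested loci, all higher in R5, from LOC_Os10g05950 to LOC_Os10g05990, from LOC_Os03g56190 to LOC_Os03g56241 and from LOC_Os03g37864 to LOC_Os03g38000. Whether reads were shared between neighbouring copies is not given.

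Primary wall cellulose synthases were positive without a call, with a log2 fold change of 0.09 to 0.68 in all 4 tested genes. The heat shock list stayed within -0.52 to 0.38.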
